A study of Mus musculus with 4 samples.

Results

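This account follows 9 genes for secreted cytokines and growth factors, Tslp, Csf1, Csf2, Csf3, Cxcl1, Vegfa, Tgfb1, Lif and Fgfbp1, among the 32285 genes of the single-cell count tables of DLA tumors. They were taken by symbol and were chosen as factors that the tumor cells make, selected on measured values of these same samples, so their levels in tumor cells against other cells are given as a description with no test. Dalton's lymphoma ascites (DLA) cells had been injected into the abdomen of Swiss albino mice, and tumor tissue was dissociated and sequenced with 10x 3′ chemistry. The 2 Control samples came from mice that the labels call untreated and the supplement calls vehicle controls, and the 2 Treated samples came from mice given SP11, an HSP90 inhibitor, orally at 30 mg/kg for 17 days. The age of the mice and the number of animals behind a sample are not given in the sources used here, so the p-values below measure the spread between these samples, which may be technical. The question was which cells make each factor and whether SP11 treatment goes with another level of it.

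Secreted factors of this kind act on neighbouring cells through surface receptors. Colony-stimulating factors (encoded by Csf1, Csf2 and Csf3) promote the growth and survival of macrophages, granulocytes and their precursors, and the chemokine encoded by Cxcl1 draws neutrophils through Cxcr2. Thymic stromal lymphopoietin (Tslp) is an epithelial cytokine that acts on dendritic cells and lymphocytes, Vegfa drives the growth of blood vessels, and transforming growth factor beta 1 (Tgfb1) is secreted in a latent form and restrains many immune cells. Leukemia inhibitory factor (Lif) belongs to the interleukin-6 family, and the protein of Fgfbp1 releases fibroblast growth factors from the matrix.

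The kept barcodes (at least 200 genes and at most 10% mitochondrial UMIs) numbered 4404, with between 9574906 and 13024964 UMIs (unique molecular identifiers, each a counted transcript) per sample. Tumor cells were barcodes with at least 5 UMIs of the keratins Krt8 and Krt18, and there were 845 of them in Control 1 and 528 in Control 2, then 1256 in Treated 1 and 582 in Treated 2. Lists of 4 values below follow this order of samples. They held epithelial transcripts that the gate did not use, with Krt7 at 1113 to 1799 counts per 1000000 UMIs (CPM) and Epcam at 194 to 227 CPM. The study calls DLA cells a lymphoma. The leukocyte gene Ptprc, however, stood at 0.518 and 0.211 CPM in the tumor cells of the Control samples, and Cldn7 had 0 UMIs. In the Treated samples Ptprc stood at 7.81 and 5.19 CPM in the same gate, and 7.96% and 11.5% of the tumor barcodes also passed an immune gate, against 2.13% and 3.41% in the Control samples. Hemoglobin genes stood at 267 and 178 CPM in the tumor barcodes of the Control samples and at 10605 and 4735 CPM in those of the Treated samples (272 and 182 against 10713 and 5040 CPM without the barcodes that passed an immune gate). The 3 B cell gate genes stood at 0.726 and 1.37 CPM against 47.4 and 25.4 CPM. Both moved with every SP11 comparison in tumor cells below, and their part in those results was not tested. Immune cells were few in the Control samples: 21 and 14 macrophages and monocytes against 67 and 74 in the Treated samples, 1 and 0 B cells against 162 and 147, and 4 and 2 neutrophils against 7 and 41. Each pair of samples shared between 60 and 359 barcode sequences, with correlations of their log total UMIs between -0.084 and 0.25.

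In tumor cells, Tgfb1 was the most abundant of the 9 genes, followed by Tslp, Vegfa and Fgfbp1, while Cxcl1, Csf3, Lif and Csf1 were sparse and Csf2 was barely detected. Levels are CPM of the UMIs summed over the cells of a class, and since 3′ counting reads 1 end of each transcript they are set side by side without scaling for gene length. Tgfb1 measured 110 and 101 CPM in the Control samples and 114 and 101 CPM in the Treated samples. Tslp measured 82.3 and 72.0 CPM in the Control samples and 66.0 and 71.7 CPM in the Treated samples. Vegfa lay at 52.0, 46.4, 49.8 and 47.3 CPM in the same order of samples. Each of these genes kept its place in the order in every sample, and the ranges over samples of neighbours did not overlap down to Cxcl1. Fgfbp1 lay between 25.5 and 29.8 CPM, and Cxcl1 between 7.39 and 9.74 CPM. The granulocyte factor Csf3 (2.44 to 3.90 CPM) and Lif (2.07 to 3.87 CPM) overlapped, so their order was not separated by the spread over samples, and Csf1 and Csf2 lay below both. Csf1, the macrophage growth factor, had 9, 8, 24 and 22 UMIs in the tumor cells of the 4 samples, which is 0.933, 0.844, 1.95 and 1.81 CPM. Csf2, the granulocyte and macrophage factor, had 1, 4, 0 and 2 UMIs in the same samples, and 0 UMIs in Treated 1 allows a level of up to 0.244 CPM (3 counts, counting error only).

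**Figure D1:**
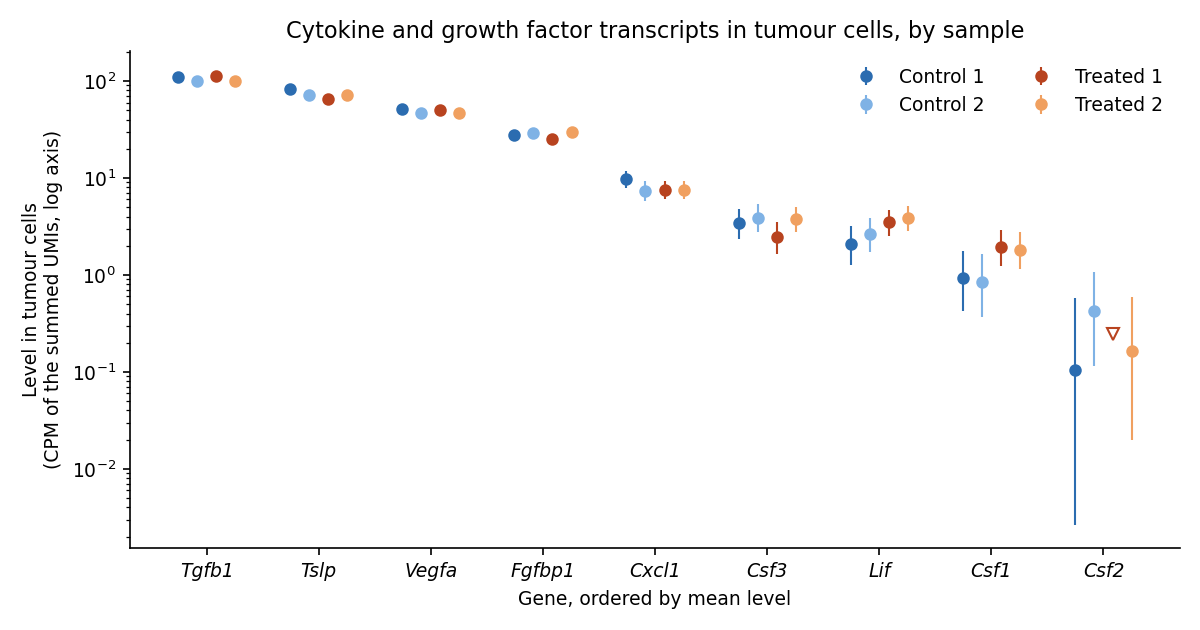
Level of each gene in tumor cells (CPM of the summed UMIs, log axis), 1 point per sample, with exact Poisson 95% intervals that cover counting error only; the open triangle stands at 3 counts for the sample with 0 UMIs. Tgfb1 (101 to 114 CPM) and Tslp (66.0 to 82.3 CPM) lie at the top and Csf2 (0 to 4 UMIs) at the bottom, and the Control and Treated points lie close together for most genes.

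The messages of the abundant factors were spread over many tumor cells. Tgfb1 had at least 1 UMI in 69.3%, 76.5%, 61.7% and 85.4% of the tumor cells of the 4 samples, close to the 68.2%, 78.4%, 63.4% and 85.0% that the cells' depths alone would give if its UMIs fell at random. Tslp was detected in 55.1%, 65.0%, 42.6% and 67.9% of the cells against 58.4%, 68.2%, 45.5% and 75.0% by depth. Fgfbp1 was the most uneven of these genes in Treated 2, where 34.7% of the cells held a UMI against 45.1% by depth, and a single cell held up to 17 of its UMIs. In Treated 1 the Fgfbp1 shares were 20.5% and 21.6%. Lif followed depth closely, with 7.73% observed and 7.73% by depth in Treated 2. Levels near the keratin gate were as follows. The 134 barcodes with 5 to 9 keratin UMIs held Tslp at 51.6 CPM (interval 36.1 to 71.4) and Cxcl1 at 11.5 CPM (4.95 to 22.6), and the 445 barcodes with 1 to 4 keratin UMIs, which the gate left out, held Tslp at 26.6 CPM (16.4 to 40.6) and Cxcl1 at 70.8 CPM (53.5 to 92.0). Csf1 stood at 1.43 CPM (0.0363 to 7.98) just inside the gate and at 21.5 CPM (12.5 to 34.4) just outside it. Fgfbp1 stood at 8.60 CPM (3.15 to 18.7) inside, below the 27.9 CPM of all tumor cells, and at 6.33 CPM (2.05 to 14.8) outside. Cxcl1 and Csf1 were thus higher just outside the gate than just inside it, and the intervals of the other members overlapped.

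The cells that held each message differed between the genes. Tumor cells held 99.0%, 99.0%, 94.5% and 93.1% of all UMIs in the 4 samples, and these shares are the measure against which a gene's own share is read. Tslp had 99.9%, 99.7%, 97.5% and 99.2% of its UMIs in tumor cells. Fgfbp1 had between 99.1% and 99.6%, Csf3 between 96.8% and 100% and Lif between 97.7% and 100%. Csf3 and Lif had 0 UMIs in every gated immune class, and 1 UMI each in the ungated barcodes of Treated 1. In the macrophages of Treated 2, 0 UMIs of Csf3 or Lif allow up to 14.6 CPM, and a level below that, such as the 3.79 CPM of Csf3 and 3.87 CPM of Lif in the tumor cells there, was not detectable at this depth. Vegfa had between 96.8% and 99.0% of its UMIs in tumor cells. Over the 4 samples it measured 52.0 CPM in macrophages and monocytes (interval 31.8 to 80.3, from 20 UMIs) and 48.9 CPM in tumor cells, so the levels were not separated, and the macrophages of single samples lay between 20.5 and 74.0 CPM.

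Tgfb1 was shared between the classes. Its tumor share was 98.8% and 98.9% in the Control samples and 93.0% and 90.0% in the Treated samples, near the share of all UMIs. Per UMI, macrophages and monocytes held more of it than tumor cells, with 197, 169, 267 and 278 CPM in the 4 samples (8, 7, 26 and 57 UMIs). B cells of the Treated samples held 69.4 and 126 CPM, and T cells 134 and 85.7 CPM from 2 and 7 UMIs. Tgfb1 is thus the member found in tumor, myeloid and lymphoid classes alike at levels of the same order. Single UMIs of Tslp also occurred in B cells, T cells, neutrophils and macrophages, and the highest of these with more than 1 UMI was 20.5 CPM (2 UMIs, in the macrophages of Treated 1), where 2.99% of 67 cells held a UMI against 42.6% of tumor cells. The median depth of these cells was 1170 UMIs against 8891.5 in the tumor cells, and the interval of the macrophage level (2.49 to 74.2 CPM) included the 66.0 CPM of the tumor cells of that sample. Over the 4 samples macrophages and monocytes held 4 Tslp UMIs, which is 10.4 CPM (2.83 to 26.6), against 72.5 CPM in tumor cells.

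Cxcl1 and Csf1 stood apart, since a large part of their messages lay outside tumor cells in the Treated samples. Cxcl1 had 91.3% and 93.3% of its UMIs in tumor cells in the Control samples and 66.0% and 57.2% in the Treated samples (95% exact binomial intervals 57.5% to 73.7% and 49.2% to 65.0%). Macrophages and monocytes held it at 98.6 and 72.5 CPM in the Control samples (4 and 3 UMIs) and at 175 and 229 CPM in the Treated samples (17 and 47 UMIs), far above the 7.39 to 9.74 CPM of tumor cells. In Treated 1 a single macrophage held 13 of the 17 UMIs, and without it the level was 41.5 CPM. In Treated 2 the 47 UMIs came from 18 of 74 cells, and without the cell with the most, which held 12, the level was 174 CPM. Neutrophils held 0 UMIs of Cxcl1 in every sample, which in the 41 neutrophils of Treated 2 allows up to 86.8 CPM. Ungated barcodes, which passed no marker gate, held 5, 2, 25 and 15 Cxcl1 UMIs in the 4 samples. These barcodes also held transcripts of Lyz2, a lysozyme of myeloid cells, at 3930 CPM over all samples.

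Csf1 had 81.8% and 88.9% of its UMIs in tumor cells in the Control samples (9 of 11 and 8 of 9 UMIs) and 64.9% and 42.3% in the Treated samples (24 of 37 and 22 of 52 UMIs). Macrophages and monocytes held 2, 1, 2 and 9 of its UMIs in the 4 samples. Neutrophils held 12 UMIs in Treated 2, in 7 of 41 cells, which is 347 CPM (interval 179 to 606), and 0 UMIs in the other samples, where only 2 to 7 neutrophils were found. The Csf1 UMIs outside tumor cells were therefore spread over several classes and came mostly from Treated 2. Csf2 had 9 UMIs in all, 7 in tumor cells, 1 in a T cell of Treated 2 and 1 in an ungated barcode, which is too few to place its source.

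**Figure D2:**
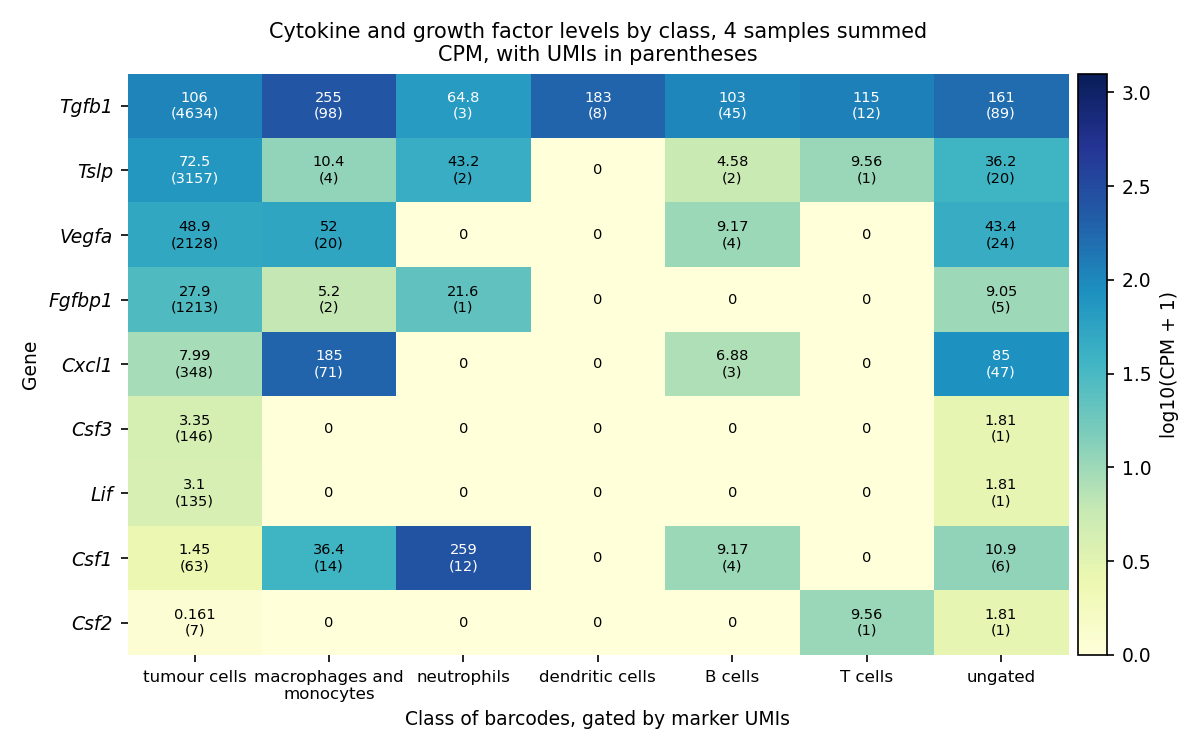
Level of each gene (rows) in each class of barcodes (columns), as CPM of the UMIs summed over the 4 samples, with the UMIs in parentheses and color on a log10(CPM + 1) scale. Tslp and Fgfbp1 are highest in tumor cells (72.5 and 27.9 CPM), Cxcl1 and Tgfb1 are highest in macrophages and monocytes (185 and 255 CPM), and Csf1 is highest in neutrophils (259 CPM), whose 12 UMIs come from Treated 2.

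The bases before the start of a gene are where many of its regulators bind, and those of 3 members are shown as examples: Cxcl1 and Csf1, whose tumor shares of UMIs were the lowest in the Treated samples among the members with more than 9 UMIs, and Lif, whose 0 UMIs in the gated immune classes lie within the limits of depth given above. The sequences are the 250 bases before the RefSeq start (GRCm38.p6), 5′ to 3′ on the strand of the gene, at chr5:90890995-90891244 (plus strand) for Cxcl1, chr3:107760470-107760719 (minus strand) for Csf1 and chr11:4257318-4257567 (plus strand) for Lif. Capitals mark matches, on either strand, to the AP-1 motif TGANTCA, to GGNNTTTCC, which resembles the motif of NF-kappaB, and to ACGTG, the core of the hypoxia response element, and no 2 matches overlapped.
Cxcl1: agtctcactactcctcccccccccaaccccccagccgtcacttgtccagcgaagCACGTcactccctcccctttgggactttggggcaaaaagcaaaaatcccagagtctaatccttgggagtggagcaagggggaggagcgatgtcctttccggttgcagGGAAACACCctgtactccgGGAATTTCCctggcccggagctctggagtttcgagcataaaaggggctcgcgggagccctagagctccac
Csf1: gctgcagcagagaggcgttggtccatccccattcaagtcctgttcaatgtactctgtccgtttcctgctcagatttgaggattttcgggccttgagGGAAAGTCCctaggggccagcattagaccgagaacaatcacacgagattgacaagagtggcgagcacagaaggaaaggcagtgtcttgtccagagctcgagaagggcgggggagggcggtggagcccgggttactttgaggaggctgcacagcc
Lif: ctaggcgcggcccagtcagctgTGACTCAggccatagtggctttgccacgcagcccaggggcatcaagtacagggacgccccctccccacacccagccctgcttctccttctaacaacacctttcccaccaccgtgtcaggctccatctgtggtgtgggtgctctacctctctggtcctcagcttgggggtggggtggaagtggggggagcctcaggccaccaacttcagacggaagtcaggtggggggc
The Cxcl1 window held 2 matches to the NF-kappaB-like motif, which begin 89 and 70 bases before the start, and 1 to the hypoxia core, and the Csf1 window held 1 NF-kappaB-like match at 154 bases. That motif is present in 4.93% of the 32851 windows of the same length in the table. The Lif window held 1 match to the AP-1 motif at 228 bases, a motif in 6.75% of windows. The search took in 8 windows for 7 of the 9 genes, and none of Tslp or Csf3. Windows of members on 1 chromosome were skipped by the search, so whether the table held windows of these 2 genes is not given. Of the 2 windows of Vegfa, 1 for each RefSeq start, that of the start farther downstream held 1 match to the hypoxia core at 211 bases. That window lies within the gene as read from the other start, so its bases can be transcribed ones and it may not be a promoter. The window of the other, upstream start of Vegfa held none of these letters. The windows of Tgfb1 and Csf2 held none of these letters, and nor did that of Fgfbp1, whose RefSeq start could not be matched to another annotation and may not be its promoter. ACGTG is present in 16.6% of windows. A match is a description of the letters and shows no binding.

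In tumor cells, no member passed the test between SP11 and control. The test was edgeR's quasi-likelihood test on the summed counts with Benjamini-Hochberg adjustment over 11588 genes, of which 210 were higher (1.81%) and 58 lower (0.501%) with SP11. Of the 9 members, 8 passed the filter on low counts and were tested, and 0 of them were called, by edgeR or by DESeq2, with 2 (Tslp and Csf1) at an unadjusted p under 0.05, as were 14.6% of all genes tested. Csf1 reached the filter's level in 1 Control and both Treated samples.

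Tslp, which was lower in both Treated samples than in both Control samples, had a log2 fold change of -0.29 (SE 0.13, edgeR adjusted p = 0.289). The 95% interval of its ratio ran from 0.688 to 0.968, without adjustment for the number of genes. After the tumor cells with at least 5000 UMIs (799, 511, 1151 and 575 in the 4 samples) were thinned to that number, 32.9% and 28.4% of the Control cells and 26.7% and 27.0% of the Treated cells held a Tslp UMI, a difference of -3.83 percentage points (exact permutation test, two-sided, p = 0.333, which no comparison of 2 samples with 2 can go below). Before thinning the shares were 55.1%, 65.0%, 42.6% and 67.9%, where depth sets the order. Csf1 had a log2 fold change of 0.95 (SE 0.42, edgeR adjusted p = 0.309), with both Treated samples above both Control samples. Its difference without the barcodes that also passed an immune gate was 0.97 (adjusted p = 0.335). Lif stood at 2.07 and 2.64 CPM in the Control samples and 3.50 and 3.87 CPM in the Treated samples, which also did not overlap, with a log2 fold change of 0.52 (SE 0.30, edgeR adjusted p = 0.439).

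For the other tested members the groups lay close together. Vegfa had a ratio of 0.904 (95% interval 0.756 to 1.08) and Fgfbp1 one of 0.896 (0.747 to 1.07). Tgfb1 had a ratio of 0.937 (0.782 to 1.12), and the sign of its difference turned without TMM scaling. All of these intervals span 1 and are not adjusted for the number of genes. Cxcl1 (0.805, 0.613 to 1.06) and Csf3 (0.777, 0.525 to 1.15), which rest on 70 to 94 and 30 to 46 UMIs per sample, have wider intervals. After thinning, the groups overlapped for Vegfa, Tgfb1, Fgfbp1, Cxcl1 and Csf3, and the mean shares differed by between -0.113 and 0.557 percentage points, with exact permutation p of 0.667 or 1.00.

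Over all kept barcodes, where the level of a factor moves with the cells present as well as with the RNA of each cell, Csf1 was the member that passed the test. It measured 1.03 ± 0.134 CPM in the Control samples and 3.42 ± 0.810 CPM in the Treated samples (mean ± SD, n = 2 each). That is 2.94-fold (95% interval 1.77 to 4.88) with an edgeR adjusted p of 0.00802. Of 12149 genes tested, 9.11% were higher and 1.63% lower, so 1 of 8 tested members higher and 0 lower is close to that background. In a sum over cells, more cells of a type and more RNA per cell cannot be told apart, and macrophages and monocytes, neutrophils and B cells were all more numerous in the Treated samples. The call was lost with DESeq2 (adjusted p = 0.0959), with a minimum of 500 genes per barcode (0.0506) and without Treated 2 (0.0841), the sample with the Csf1-bearing neutrophils. Tslp had a log2 fold change of -0.37 (SE 0.13, edgeR adjusted p = 0.0777), and Cxcl1 one of 0.17 (SE 0.19, adjusted p = 0.640).

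Macrophages and monocytes were the only immune class with cells enough to test in most samples. Control 2 held 14 of them, under the limit of 20 set for the test, so the test is an added analysis and its counts were unstable. Of 1044 genes tested, 4.60% were higher and 2.78% lower with SP11. Of the 2 members tested, Cxcl1 and Tgfb1, 0 passed in edgeR. Of these, 1 (Cxcl1) had an unadjusted p under 0.05, as had 24.1% of all genes tested. DESeq2 gave both members no adjusted p. Cxcl1, which passed the filter through the Treated samples alone, had a log2 fold change of 1.37 (SE 0.56, edgeR adjusted p = 0.135), with the Control samples at 98.6 and 72.5 CPM and the Treated samples at 175 and 229 CPM. In Treated 1, 1 macrophage held 13 of the UMIs. Without the cell with the most Cxcl1 UMIs in each sample, the Control samples stood at 75.7 and 25.9 CPM and the Treated samples at 41.5 and 174 CPM. Treated 1 then lay between the Control samples, so its place above both rests on the cell with 13 UMIs. Tgfb1 had a log2 fold change of 0.69 (SE 0.45, edgeR adjusted p = 0.372). The difference between the SP11 effects in tumor cells and in macrophages was tested as an interaction over 11180 genes. For Cxcl1 the effect in tumor cells minus that in macrophages was -1.94 on the log2 scale (SE 0.80, edgeR adjusted p = 0.746), a value that includes the same cell, and for Tgfb1 it was -1.05 (SE 0.50, adjusted p = 0.945).

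**Figure D3:**
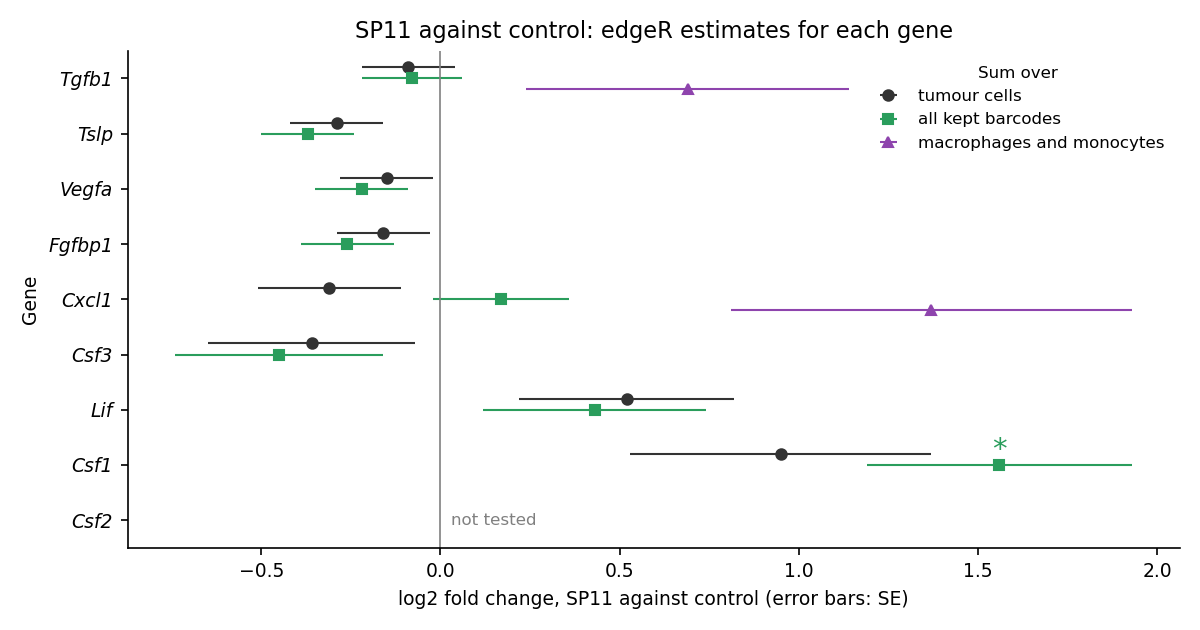
Log2 fold change of each gene, SP11 against control, from edgeR, with the SE as error bars, for sums over tumor cells, all kept barcodes, and macrophages and monocytes; a star marks an adjusted p under 0.05. The star stands at Csf1 over all kept barcodes (1.56), and every tumor-cell estimate lies between -0.36 and 0.95 without one.

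Within the tumor cells, 2 of the members differed between mitotic and other cells. Mitotic cells were those with at least 10 UMIs per 10000 of Cenpf, Ube2c, Cdc20, Ccnb1 and Plk1, genes that peak around mitosis, and they numbered 184, 98, 257 and 137 in the 4 samples. Fgfbp1 measured 16.3, 15.2, 15.4 and 15.9 CPM in the mitotic cells of these samples and 31.3, 33.2, 28.9 and 35.2 CPM in the other tumor cells. It was lower in mitotic cells in 4 of 4 samples, and the ranges were well apart. Its log2 fold change was -1.07 (SE 0.11, edgeR with the sample as a block, adjusted p = 5.36e-12), which is a ratio of 0.477. Tslp measured 57.7, 50.9, 58.8 and 57.0 CPM in mitotic cells and 90.7, 78.5, 68.4 and 77.5 CPM in other tumor cells. It was also lower in 4 of 4 samples, with a log2 fold change of -0.50 (SE 0.07, edgeR adjusted p = 2.77e-08) and a ratio of 0.705. DESeq2 called both (adjusted p of 9.07e-08 for Fgfbp1 and 4.67e-05 for Tslp).

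Mitotic cells also held more RNA, with a median of 13959 UMIs against 10413 in Control 1 and 24771 against 19112 in Treated 2. Counted per cell, Fgfbp1 averaged 0.217, 0.347, 0.187 and 0.394 UMIs in mitotic cells and 0.340, 0.558, 0.265 and 0.690 in other tumor cells, lower in every sample. Tslp averaged 0.772, 1.16, 0.712 and 1.42 UMIs per mitotic cell against 0.986, 1.32, 0.629 and 1.52, so its count per cell was lower in 3 samples and higher in Treated 1. With the cells of at least 5000 UMIs thinned to that number (172, 97, 244 and 137 mitotic cells) and shallower cells left out, the log2 fold changes were -1.06 for Fgfbp1 (edgeR adjusted p = 3.11e-05) and -0.45 for Tslp (0.00633). These levels are already per UMI, which thinning each cell leaves about unchanged, so the part of depth was not tested by it. The lower number of messages per cell in every sample holds for Fgfbp1 and not for Tslp.

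The comparison covered 10386 genes, of which 8.59% were higher and 9.63% lower in mitotic cells, and 2 of the 7 tested members were lower and 0 higher. Tgfb1 (log2 fold change -0.05, SE 0.05), Vegfa (-0.03, SE 0.08) and Cxcl1 (0.14, SE 0.17) were not called. For Tgfb1 the ratio had a 95% interval of 0.901 to 1.04, and for Vegfa of 0.882 to 1.08. Lif (-0.59, SE 0.31, edgeR adjusted p = 0.202) stood at 0.406, 1.78, 3.21 and 3.23 CPM in mitotic cells and at 2.64, 2.90, 3.60 and 4.13 CPM in others, from 1, 4, 10 and 11 UMIs in the mitotic cells. Csf3 (-0.34, SE 0.28) was not called, and Csf1 and Csf2 were too sparse to test.

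**Figure D4:**
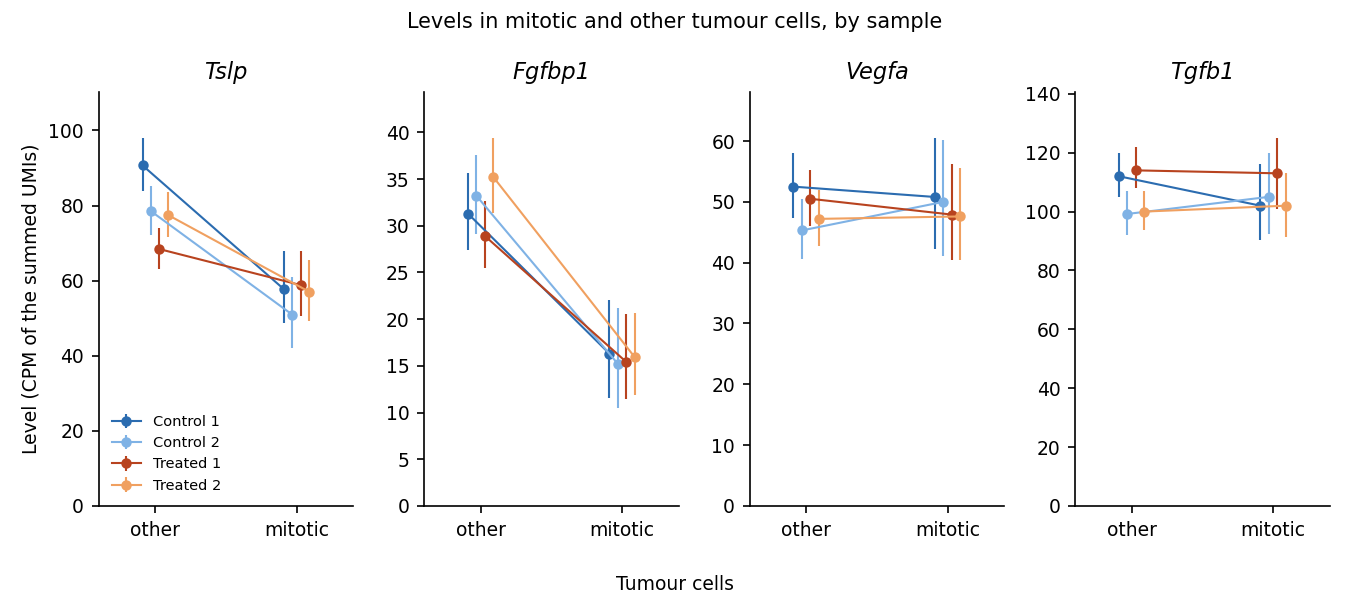
Level (CPM of the summed UMIs) of Tslp, Fgfbp1, Vegfa and Tgfb1 in mitotic and other tumor cells, 1 line per sample, with exact Poisson 95% intervals that cover counting error only. Every line falls for Fgfbp1 (ratios 0.452 to 0.533) and Tslp (0.636 to 0.860), and the lines for Vegfa (0.949 to 1.10) and Tgfb1 (0.911 to 1.06) are near level.

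The receptors of these factors differed in the class with the highest level, and levels here are per UMI of a class. Tumor cells, which held most of all UMIs, also held most messages of several receptors (568 of 690 UMIs of Crlf2 and 547 of 699 of Tgfbr2, not counting neutrophils, dendritic cells and NK cells). Csf1r, the receptor of the macrophage factor, measured 252 CPM in macrophages and monocytes over the 4 samples and 1.06 CPM in tumor cells. Csf3r measured 1123 CPM in neutrophils and 1.72 CPM in tumor cells, and Cxcr2, the receptor for the Cxcl1 protein, 497 and 0.666 CPM. Both neutrophil levels rest on 52 and 23 UMIs. For the Tslp protein, which signals through a pair of chains, Crlf2 measured 117 CPM in macrophages and monocytes, 68.8 CPM in B cells and 13.0 CPM in tumor cells, while Il7r measured 306 CPM in T cells and 0.413 CPM in tumor cells. Tumor cells thus held 568 UMIs of one chain and 18 of the other. The Vegfa receptors in tumor cells were Flt1 at 20.1 CPM and the co-receptor Nrp2 at 94.5 CPM, whereas Kdr had 3 UMIs in all of the classes plotted. Tgfbr2 measured 248 CPM in T cells, 156 CPM in B cells and 12.6 CPM in tumor cells, and Tgfbr1 13.6 CPM in tumor cells. Lifr was highest in B cells (80.2 CPM) and measured 0.528 CPM in tumor cells, and its partner Il6st 6.06 CPM there. Fgfr2, a receptor for the growth factors that the Fgfbp1 protein binds, measured 11.9 CPM in tumor cells, and Fgfr4 had 0 UMIs in every class.

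**Figure D5:**
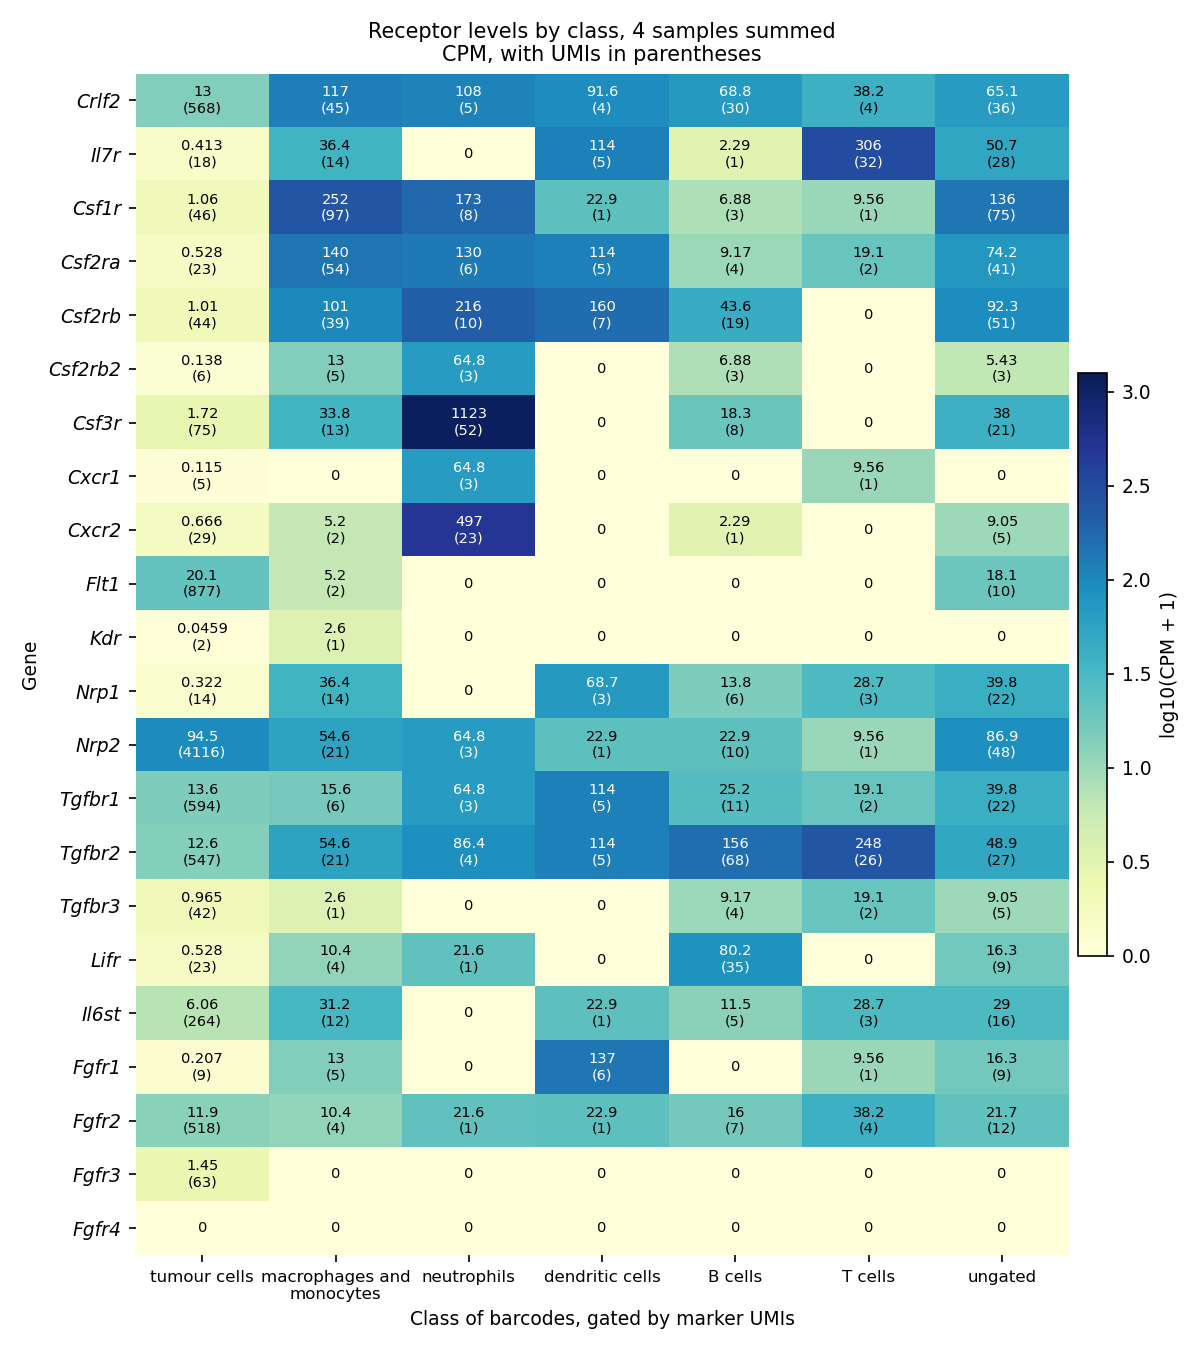
Level of each of the 22 receptor genes (rows) in each class of barcodes (columns), as CPM of the UMIs summed over the 4 samples, with the UMIs in parentheses and color on a log10(CPM + 1) scale. Csf3r (1123 CPM) and Cxcr2 (497 CPM) are highest in neutrophils, Csf1r (252 CPM) in macrophages and monocytes, and Nrp2 (94.5 CPM) and Flt1 (20.1 CPM) in tumor cells.

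In the tumor gate, edgeR called 3 of 11 tested receptors higher with SP11 and 0 lower, against 1.81% higher over all genes tested. All 3 reached the filter's level in the Treated samples alone, so a gene among them had to differ to be tested. The count and the calls are therefore a description. Csf3r measured 0.104 and 0.211 CPM in the Control samples and 3.50 and 2.39 CPM in the Treated samples (75 UMIs in all). Csf2rb measured 0.104 and 0 CPM against 2.20 and 1.32 CPM (44 UMIs), and Cxcr2 0.104 and 0 CPM against 1.14 and 1.15 CPM (29 UMIs). DESeq2 called neither of these (0.127 and 0.336), and without 1 sample the edgeR adjusted p reached 0.151 for Csf2rb and 0.279 for Cxcr2. All 3 are leukocyte receptors, and the neutrophil genes S100a8, S100a9 and Retnlg stood together at 36.9 and 47.3 CPM in the tumor barcodes of the Control samples and at 149 and 168 CPM in those of the Treated samples. When barcodes that also passed an immune gate were left out, the log2 fold change of Csf3r was 3.90, against 4.02 with them. Csf2rb and Cxcr2 were then too low to test, and the neutrophil genes stood at 37.0 and 41.2 against 92.8 and 69.6 CPM. The part of these non-tumor transcripts in the calls was not tested.

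Of 51 other cytokine and growth factor genes, 21 were tested in tumor cells, and Il1b and Cxcl2 were higher with SP11 and 0 were lower (median log2 fold change 0.08), against 1.81% higher and 0.501% lower over all genes tested. Cxcl2, a neutrophil chemokine related to Cxcl1, measured 13.4 and 7.17 CPM in the Control samples and 63.7 and 38.0 CPM in the Treated samples (log2 fold change 2.19, SE 0.27, edgeR adjusted p = 0.000177). Il1b, the inflammatory cytokine interleukin-1 beta, measured 0.933 and 0.633 CPM against 18.0 and 14.9 CPM (4.25, SE 0.29, adjusted p = 2.37e-07). Both were far higher in neutrophils (9376 CPM of Cxcl2 and 4839 CPM of Il1b) than in tumor cells (33.1 and 9.58 CPM), and both stayed called without the barcodes that passed an immune gate (log2 fold changes of 2.07 and 4.01). The part of free or captured immune RNA in this was not tested. Cxcl1, by contrast with its relative Cxcl2, stood at 7.57 and 7.50 CPM in the same Treated tumor barcodes against 9.74 and 7.39 CPM in the Control ones.

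Of the other lists, Furin, a protease that cleaves the Tgfb1 precursor, was the 1 gene called among 6 tested genes of TGF-beta storage and activation (9.54 and 8.12 CPM in the Control samples, 16.1 and 16.3 CPM in the Treated samples, log2 fold change 0.75, edgeR adjusted p = 0.0263, up to 0.257 without 1 sample, and 0.190 in DESeq2, which did not call it), against 1.81% of all genes tested. In tumor cells, edgeR without a replicate block and DESeq2 called none of 9 regulators of AU-rich cytokine messages. They also called none of 12 hypoxia-response genes and 9 feedback genes of cytokine signalling. The median log2 fold changes of these lists were 0.14, -0.10 and 0.09. In mitotic against other tumor cells, Angptl4 (log2 fold change -0.60), Il34 (-0.69), Pdgfb (-0.68) and Il23a (-0.38) were lower and Bmp4 (0.24) higher among 17 tested cytokine genes, Ndrg1 (-0.38, edgeR adjusted p = 6.16e-12) was lower among 11 hypoxia genes, Socs2 (-0.89) among 7 feedback genes and Hnrnpd (-0.18) among 9 RNA-binding genes. Over all genes tested 8.59% were higher and 9.63% lower in mitotic cells, and the single calls of 7, 9 and 11 genes are near that share. DESeq2 called Ndrg1 and Hnrnpd of these 8. Without 1 sample the edgeR adjusted p reached 0.239 for Il34, 0.193 for Pdgfb, 0.276 for Il23a, 0.243 for Bmp4 and 0.114 for Socs2, and the calls of Angptl4, Ndrg1 and Hnrnpd held. Pdgfb was also not called without the barcodes that passed an immune gate (0.0578). In macrophages, 1 of 6 tested cytokine genes was lower with SP11, the monocyte chemokine Ccl2 (-1.75, edgeR adjusted p = 0.000183), against 2.78% of all genes tested, and without 1 sample its adjusted p reached 0.478.

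Over all kept barcodes, edgeR called 9 of 18 tested receptors and 6 of 26 tested cytokine genes higher with SP11. The share over all genes tested was 9.11%, but 6 of these receptors and 3 of these cytokine genes reached the filter's level in the Treated samples alone and had to differ to be tested, so the counts are a description. DESeq2 called 7 and 4 of them. Among the receptors, Csf1r (log2 fold change 2.72), Csf2ra (2.34), a chain of the receptor for the Csf2 protein, and Tgfbr2 (0.57, not called by DESeq2, adjusted p = 0.223) reached the filter's level in a Control sample. The other 6 receptors, Csf3r, Csf2rb, Cxcr2, Nrp1, Lifr and Fgfr1, reached it in the Treated samples alone, where they lay between 0.923 CPM (Fgfr1) and 8.98 CPM (Csf3r), and they were at most 0.522 CPM in the Control samples. Among the cytokines, Il1b (3.74), Cxcl2 (2.33) and Tnf (1.31), the inflammatory cytokine tumor necrosis factor, were called by both tools. Il6, Il16 and Il18 reached the filter's level in the Treated samples alone, at 1.15 to 2.53 CPM, and of these DESeq2 called Il16. Zfp36, whose protein binds AU-rich messages and speeds their decay, was the 1 gene called of 9 in its list (2.98 and 2.72 CPM in the Control samples, 9.08 and 11.5 CPM in the Treated samples, log2 fold change 1.69, edgeR adjusted p = 3.65e-05, DESeq2 0.000113). Furin was the 1 called of 7 tested genes of TGF-beta storage and activation (0.70, edgeR adjusted p = 0.00927), and it was not called by DESeq2 (0.0836) or without 1 sample (up to 0.107). None of 12 hypoxia-response and 9 feedback genes was called by either tool without a replicate block. Il23a was the 1 listed gene called lower (edgeR adjusted p = 0.0432, against 1.63% of all genes tested), and this call was lost in DESeq2 (0.237) and without 1 sample (up to 0.274).

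The genes whose level over 10 sums of a class in a sample was most like that of a member were found by Pearson correlation of log2(CPM + 1), as a description. For Tslp they were Prodh (0.989), Sema3e (0.986) and Sfn (0.977), and for Fgfbp1 they were Spdl1 (0.999), Dis3 and E2f7 (both 0.994). For Vegfa they were Anxa3 (0.985), Ctsl (0.972) and Wdr46 (0.969), and for Tgfb1 Vps53, Sel1l (both 0.990) and Mex3c (0.989). Csf1 was most like Ell (0.985), Cxcl1 like Dbi (0.985), Csf3 like Arl6 (0.999) and Lif like Pde5a (0.999). The 10 sums share 4 samples, and the split of tumor from other classes is common to most of these pairs.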

How the data were processed

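Single-cell RNA sequencing of 4 DLA tumor samples was analysed. For each sample, raw counts of UMIs were deposited by gene and barcode, made by the authors with Cell Ranger 7.1.0. The submitters' processing notes name mm10, whereas the study's methods name hg38 for the single-cell work. No normalization was applied to the deposited counts. Barcodes were kept at 200 genes and 10% mitochondrial UMIs, the study's limits. Doublets were not called, and barcodes passing both the keratin and an immune gate were left out as an alternative. Tumor cells had at least 5 Krt8 plus Krt18 UMIs. The other barcodes were gated by UMIs of marker genes: B cells (Cd79a, Cd79b, Ms4a1, at least 2), T cells (Cd3d, Cd3e, Cd3g, Trac, Trbc1, Trbc2, at least 2), neutrophils (S100a8, S100a9, Retnlg, at least 20), macrophages and monocytes (10 genes, at least 4), dendritic cells (6 genes, at least 2) and NK cells (4 genes, at least 2), and hemoglobin barcodes had at least 50% hemoglobin UMIs. Counts were summed per sample and class and tested with edgeR 4.0.16 (TMM, filterByExpr, quasi-likelihood test, Benjamini-Hochberg adjustment at 0.05) in R 4.3.3, with DESeq2 1.42.0 as an alternative, and this fit was checked on simulated counts. Ratios have normal 95% intervals from the SE. Poisson and Clopper-Pearson 95% intervals came from scipy 1.17.1 and cover counting error only, and a count of 0 was given a limit of 3 counts. The genes named are all 9 members, and, from the lists, those called or highest in a class. The members, gates and lists were chosen with earlier results of these data known. Alternatives varied the scaling, filters, gates and depth, left out each sample and used the replicate number as a block.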

Additional observations from a re-analysis of the deposited data

How the results depend on the processing

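Fgfbp1 and Tslp kept their lower level in mitotic tumor cells, past the threshold, in all 9 settings tried, with log2 fold changes of -1.11 to -0.98 and -0.59 to -0.45. In tumor cells, no setting brought a member past the threshold between SP11 and control. Without TMM scaling the median of all genes moved to 0.12 in tumor cells, -0.13 in macrophages and 0.14 over all kept barcodes, and Tgfb1 turned to 0.03 in tumor cells and 0.06 over all kept barcodes, and Vegfa to 0.00 in mitotic cells (0.06 with a mitotic gate of 20 per 10000). With 1 sample left out, Tgfb1 ran from -0.24 to 0.04 in tumor cells and from -0.22 to 0.05 over all barcodes (highest without Treated 2), and Cxcl1 from -0.05 (without Control 2) to 0.42 over all barcodes. Csf1 over all barcodes had a log2 fold change of 1.56 in DESeq2 and 1.25 with 500 genes per barcode, neither called, and 1.36 to 1.73 with 1 sample left out. The thinned shares turned to -0.151 percentage points for Csf1 at 2000 UMIs and to -0.791 for Cxcl1 without thinning. With at least 10 keratin UMIs, the mean tumor shares were 97.9% for Tslp, 96.4% for Vegfa, 96.3% for Lif and 98.9% for Fgfbp1. The cause of these moves was not tested.

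The replicate numbers were checked for pairing: deviations of same-numbered samples correlated at 0.12, and with 2 pairs this does not show that the numbers pair the samples. The replicate block raised the calls to 654 higher and 384 lower in tumor cells, 705 lower over all barcodes and 45 lower in macrophages, and it called Tslp over all barcodes (-0.37, edgeR adjusted p = 0.0130). Of the listed genes in tumor cells, the block added Hif1a (-0.43, edgeR adjusted p = 0.00319), Tnf (0.000456), Itgav (0.0223) and Ltbp1 (0.0233). Over all barcodes it added Hif1a (-0.38, 0.00947), Bnip3 (-0.32, 0.0419), Zc3h12a, Crlf2, Il7r, Cxcl10, Itgav, Thbs1 and Ltbp4.

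Counts of calls moved more. In tumor cells the 210 higher genes became 104 in DESeq2, 444 without TMM scaling and 68 to 345 with 1 sample left out (lowest without Control 2), and the 58 lower genes 9 to 106. In macrophages the 48 higher genes became 16 in DESeq2, 29 without TMM scaling, 10 with a gate of 8 UMIs, 4 without keratin UMIs and 0 to 50 with 1 sample left out. The 29 lower genes became 12, 44, 0, 0 and 0 to 56 in the same settings, 6 without the filter, 15 with 500 genes and 48 with a gate of 2 UMIs, chosen after seeing the data. Over all barcodes the 1107 higher genes became 644 in DESeq2, and the 198 lower 115 in DESeq2, 89 without TMM scaling and 107 to 325 with 1 sample left out. In mitotic cells the 892 higher genes became 354 in DESeq2 and 380 after thinning to 5000 UMIs, and the 1000 lower 443, 370 and, with the stricter gate, 645. Thinning and leaving out mixed barcodes in this comparison, and the macrophage test under its cell limit, were also chosen after seeing the data. Shares of cells with 2 or more UMIs gave no value for Csf2 and Lif. Depth limits Csf2, Csf1 and all immune classes.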

Other observations

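Several ligands outside the 9 members were also abundant in the keratin-positive tumor cells. Mif, the macrophage migration inhibitory factor, measured 2243 and 2109 CPM in the tumor cells of the Control samples and 2252 and 2101 CPM in those of the Treated samples. Cxcl16, a chemokine for T cells, measured 104 and 116 CPM against 126 and 122 CPM. Pgf, the placental growth factor and a relative of Vegfa, measured 45.1 and 23.8 CPM against 37.3 and 36.1 CPM. Bmp4, a growth factor of the TGF-beta family, measured 31.9 and 31.2 CPM against 34.2 and 40.0 CPM. Pdgfa, a platelet-derived growth factor, measured 24.9 and 30.1 CPM against 23.9 and 30.2 CPM. None of these 5 genes was called between SP11 and control in tumor cells by edgeR or DESeq2.

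Barcodes that the filters removed also held member transcripts, at levels that differed between the groups for some genes. The removed barcodes of the groups were unlike. With a mitochondrial limit of 20%, kept barcodes rose from 916 to 958 in Control 1 and from 566 to 586 in Control 2. They rose only from 1831 to 1840 in Treated 1 and from 1091 to 1093 in Treated 2. The intervals below pool the samples of a group and cover counting error only. The 90 removed barcodes of the Control samples held Tslp at 62.7 CPM (exact Poisson 95% interval 30.1 to 115), Vegfa at 81.5 CPM (43.4 to 139) and Tgfb1 at 94.1 CPM (52.7 to 155). The 838 removed barcodes of the Treated samples held Tslp at 3.94 CPM (1.07 to 10.1), Vegfa at 5.92 CPM (2.17 to 12.9) and Tgfb1 at 14.8 CPM (8.28 to 24.4). The intervals of Fgfbp1 (6.84 to 64.2 against 2.17 to 12.9 CPM) and Csf3 (0.159 to 34.9 against 0.239 to 7.12 CPM) overlapped. Csf1 and Cxcl1 had 0 UMIs in the removed Control barcodes and 4 and 3 UMIs in the removed Treated ones, and Csf2 and Lif had 0 in both.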
